A study of Bos taurus with 2 samples.

Results

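The troponins and tropomyosins are the calcium switch of the muscle thin filament, and 10 of their genes were examined here: TNNT1, TNNT2 and TNNT3 for troponin T, TNNI1 and TNNI2 for troponin I, TNNC1 and TNNC2 for troponin C, and TPM1, TPM2 and TPM3 for tropomyosin. Members were chosen by name, and their probes were found by matching the accession of each array probe to a gene symbol. By this match the array held 26714 genes and unnamed transcripts, with 8 of the 10 members among them. All 8 had a value, from 31 probes, where 19554 of the 26714 did. TNNI1 and TNNI2 had no probe matched by accession.

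The tissue was the longissimus thoracis (LT) muscle, a long muscle of the back, taken from Japanese Black cattle fetuses at 8.5 months of gestation. The high-nutrition (HN) sample pooled the RNA of 4 fetuses whose dams ate 120% of the recommended nutrition before and during pregnancy, and the low-nutrition (LN) sample pooled 4 fetuses whose dams ate 60%. The HN pool held the fetuses of highest body weight in its group and the LN pool those of lowest body weight, so diet and the choice by weight cannot be told apart. All pregnancies came from sexed semen of 1 sire, and the pooled animals are described as steers. Each pool was hybridised once, to a 1-colour Agilent bovine array, and both arrays lay on the same slide. With 1 array per group no test between the diets was possible, and no difference below has a replicate check or a p-value.

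In resting muscle, tropomyosin lies along actin and covers the sites to which myosin binds. Troponin T ties the troponin complex to tropomyosin, troponin I holds the filament in its blocked state, and troponin C binds the calcium released on stimulation and lifts that block. Slow and fast fibres carry their own troponin isoforms, and their tropomyosins differ in the same way: TPM3 encodes the alpha chain of slow fibres, TPM1 that of fast fibres, and TPM2 the beta chain found in both.

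Values are log2 scanner signals after quantile normalization, which gives both arrays the same set of values, and a gene's difference is the mean over its probes of log2 LN minus log2 HN, written log2 LN/HN. The error measured on these arrays was that of a spot: 42 probes printed several times on the array had an SD of 0.085 in log2 LN/HN, so that 95% of single spots are expected within 0.17 log2, or 1.12-fold. This error leaves out all variation between fetuses, pools and hybridisations. The repeated probes had a median log2 signal of 8.30, and the 3 of them over 13 had an SD of 0.063, a 95% limit of 0.12. The scanner software gave each signal an error of its own, of 10% to 10.4% for the member probes, which makes a 95% limit of 0.40 for log2 LN/HN. Below, the error of a spot means 0.17 unless another is named. SDs given for a gene are over its probes, which measure the same 2 RNA pools and are not replicates. Of the probes on the array, 74.5% in HN and 70.9% in LN were well above background, no spot was saturated, and 8 spiked-in control RNAs gave log2 LN/HN between -0.077 and 0.050. The median over all genes was -0.0033.

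No troponin or tropomyosin probe was higher in LN. Of the 31 probes, 29 were lower in LN and 2 were equal after quantile normalization, and before normalization all 31 were lower. Of the 8 genes, 7 were lower in LN by any amount, where 50.7% of all genes with a value were. Among the 7 genes with several probes, 6 had every probe lower in LN, where 28.7% of all genes with 2 or more probes measured on both arrays did. The differences were small. The median over the 8 genes was -0.13, and no member passed a fold limit set at 25%, where the signal of one pool exceeds that of the other by that share, or 0.32 log2. Of all genes, 9.11% were lower in LN past that limit and 8.85% higher.

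**Figure D1:**
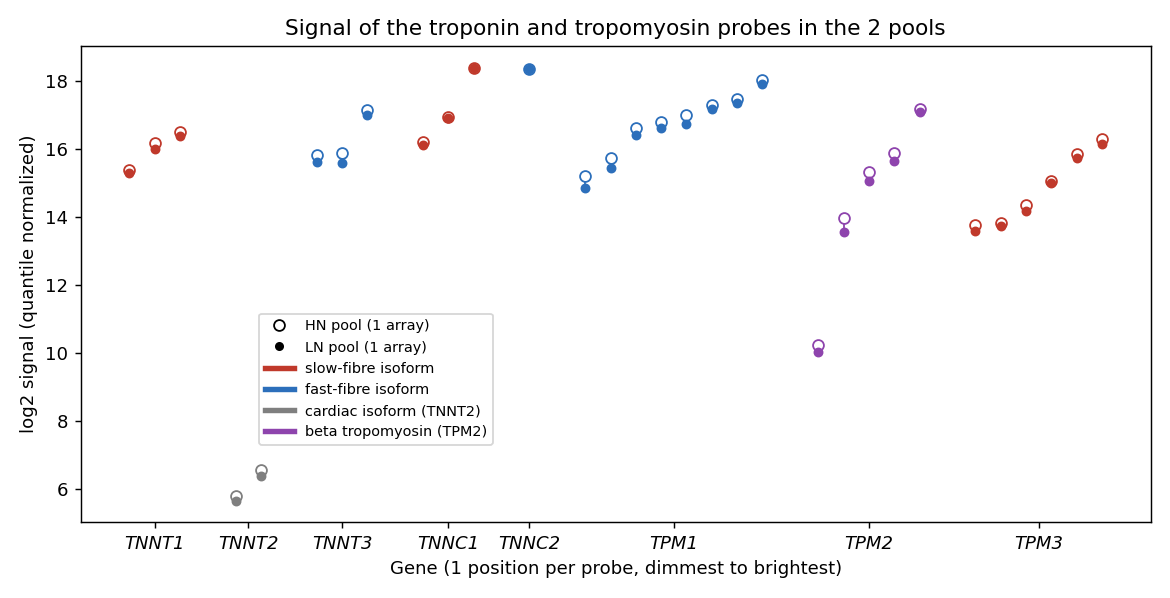
Log2 signal after quantile normalization (vertical axis) of each of the 31 probes, grouped by gene, in the HN pool (open circles) and the LN pool (filled circles), 1 array each. Each filled circle lies at or below its open circle, and the gaps are small beside the range of signals.

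Troponin T of slow fibres, TNNT1, was read by 3 probes. Their log2 signals were 15.37, 16.17 and 16.50 in HN and 15.29, 16.00 and 16.38 in LN. All 3 were lower in LN, by differences of -0.076, -0.17 and -0.12, with a mean of -0.12 (SD 0.046 over 3 probes), or 8.10% less signal. The second of these passed the error of a spot, narrowly.

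Troponin T of fast fibres, TNNT3, differed more. Its 3 probes stood at 15.82, 15.87 and 17.15 in HN and at 15.62, 15.58 and 16.99 in LN. The differences were -0.21, -0.29 and -0.17, a mean of -0.22 (SD 0.060 over 3 probes) or 14.2% less signal in LN. All 3 lay past the error of a spot, the brightest of them narrowly. The third troponin T gene, TNNT2, encodes the cardiac form, which developing skeletal muscle also makes. Its 2 probes were dim, at 5.77 and 6.53 in HN and 5.64 and 6.38 in LN, and their mean difference of -0.14 (SD 0.020 over 2 probes) lay within the error of a spot for each. With the normexp background correction, an alternative estimate of background, TNNT2 was at -0.065.

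The slow troponin T isoform thus differed less between the pools than the fast one: TNNT1 minus TNNT3 was 0.099 on the log2 LN/HN scale, with a standard error of 0.044 that covers the spread of the probes only. Of the 3 TNNT3 probes, 2 were below every TNNT1 probe, and the third was level with the lowest. The difference between the isoforms was 0.11 without normalization and 0.046 with the brightest probe of each gene alone.

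Troponin I could not be compared between slow and fast forms. The cardiac isoform TNNI3, which was not a member, had a single probe at 8.51 in HN and 8.25 in LN, a log2 LN/HN of -0.26. In the bovine gene table TNNI3 is the direct neighbour of TNNT1, with 0 protein-coding genes between them, while 1 lies between TNNI1 and TNNT2 and 2 between TNNI2 and TNNT3, so that each troponin T gene stands close to a troponin I gene.

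Troponin C gave the smallest differences of the set. TNNC1, the form of slow and cardiac muscle, had probes at 16.21, 16.94 and 18.39 in HN and at 16.10, 16.91 and 18.39 in LN. The differences of -0.11, -0.036 and 0 average to -0.049 (SD 0.057 over 3 probes), and none passed the error of a spot. TNNC2, the fast form, had 1 probe, at 18.35 in both pools and so with a difference of 0. These values of 0 follow from the normalization: the brightest TNNC1 probe ranked 3 and the TNNC2 probe ranked 4 among all probes on both arrays, and quantile normalization gives equal ranks equal values. Unnormalized, the brightest TNNC1 probe read 346547 in HN and 340940 in LN, a log2 LN/HN of -0.024. The TNNC2 probe read 342316 and 326693, a log2 LN/HN of -0.067, and the mean of TNNC1 was -0.076. With the 75th percentile of each array subtracted, TNNC1 stood at -0.11 and TNNC2 at -0.10, where the median of all genes was -0.042. With normexp TNNC1 stood at -0.00013. The slow minus fast difference of troponin C was -0.049 normalized, and -0.0084 unnormalized. TNNC2 has 1 probe and so no spread of its own; the standard error of TNNC1 over its 3 probes was 0.033, and it is 0.091 for the pair if the TNNC2 probe is given the SD of 0.085 of the repeated probes.

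**Figure D2:**
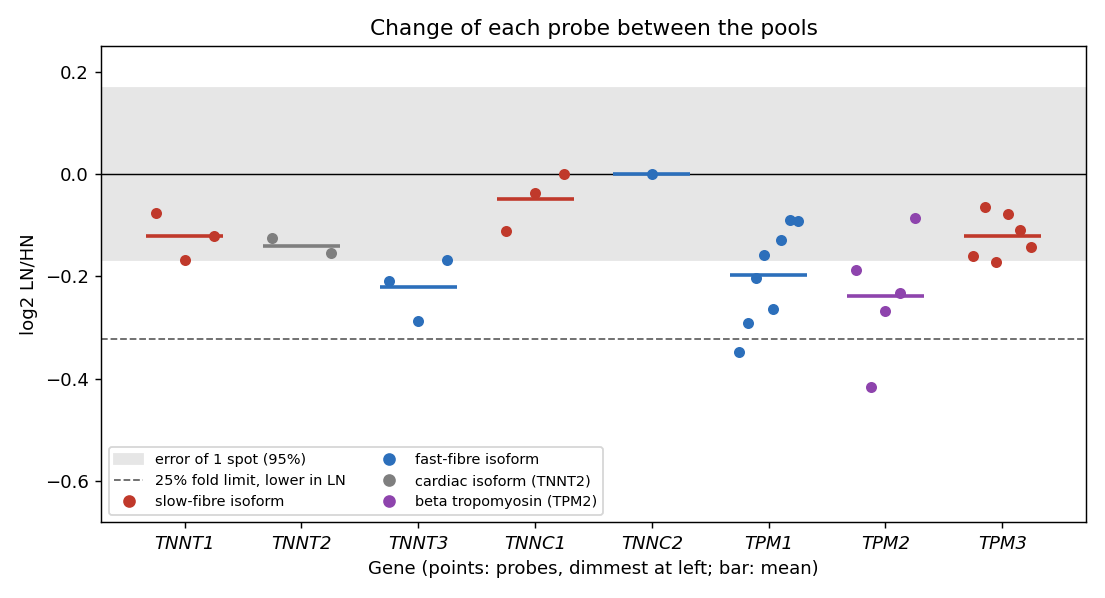
Log2 LN/HN (vertical axis) of each probe by gene, probes ordered from dimmest to brightest, with a bar at the mean of each gene. The grey band is the 95% error of 1 spot, 0.17 log2 on either side of 0, and the dashed line marks the 25% fold limit, lower in LN; 13 of the 31 probes lie below the band and 2 below the line.

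Among the tropomyosins, TPM1, the fast alpha chain, had 8 probes, and all were lower in LN. In order of signal they read 15.19, 15.72, 16.60, 16.78, 16.99, 17.30, 17.45 and 18.01 in HN and 14.84, 15.42, 16.40, 16.62, 16.72, 17.18, 17.36 and 17.92 in LN. The differences ran from -0.35 at the dimmest probe to -0.091 at the brightest, with a mean of -0.20 (SD 0.096 over 8 probes), or 12.8% less signal. Of the 8, 4 passed the error of a spot and the dimmest also passed the fold limit.

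TPM2, the beta chain, had a mean of -0.24 (SD 0.12 over 5 probes), or 15.2% less signal in LN. Its probes stood at 10.22, 13.98, 15.31, 15.87 and 17.18 in HN and at 10.03, 13.56, 15.05, 15.64 and 17.09 in LN. The probe at 13.98 differed by -0.42, the lowest value of any member probe, and the brightest by -0.086. All 5 were lower, and 4 of them passed the error of a spot.

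TPM3, the slow alpha chain, differed less. Its 6 probes read 13.75, 13.81, 14.33, 15.06, 15.84 and 16.28 in HN and 13.59, 13.74, 14.16, 14.99, 15.73 and 16.14 in LN. Their differences lay between -0.17 and -0.064 with a mean of -0.12 (SD 0.044 over 6 probes), or 8.03% less signal, and 1 probe passed the error of a spot. TPM4, a tropomyosin mostly of non-muscle cells and no member of the set, was level at 0.03 (5 probes, from -0.10 to 0.16).

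Between the alpha chains, TPM3 minus TPM1 was 0.076 on the log2 LN/HN scale, with a standard error from the probes of 0.039. Of the 8 TPM1 probes, 4 were below every TPM3 probe, and the others lay within the TPM3 range. The difference depended on which probes were read. With the brightest probe of each gene alone it turned to -0.051, and over the probes whose signal lay in the range that both genes share, 2 of each, it was 0.19. In that range TPM3 averaged -0.13 and TPM1 -0.32. The same restriction of the troponin T pair, also to 2 probes of each gene, left TNNT1 minus TNNT3 at 0.10.

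Within TPM1 the difference moved with signal. Across its 8 probes, which share the same arrays and gene, Pearson's r between log2 signal and log2 LN/HN was 0.92 and Spearman's rho 0.90. The 4 dimmer probes averaged -0.25 and the 4 brighter ones -0.14. In TPM2 the order held over the 4 probes above the dimmest, from -0.42 to -0.086, but rho over all 5 was 0.40, and in TPM3 rho over 6 probes was 0.086. The brightest probe was nearer to 0 than the dimmest in 5 of the 6 members with 3 or more probes. Over all genes with as many probes this held in 64.7%, so that the members' share is not far from the background. Probes of TPM1, TPM2 and TPM3 can lie on exons that only some transcripts carry, and tropomyosin messages are alike in sequence. Differences between transcripts, cross-hybridisation between the genes and compression at high signal were not tested.

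**Figure D3:**
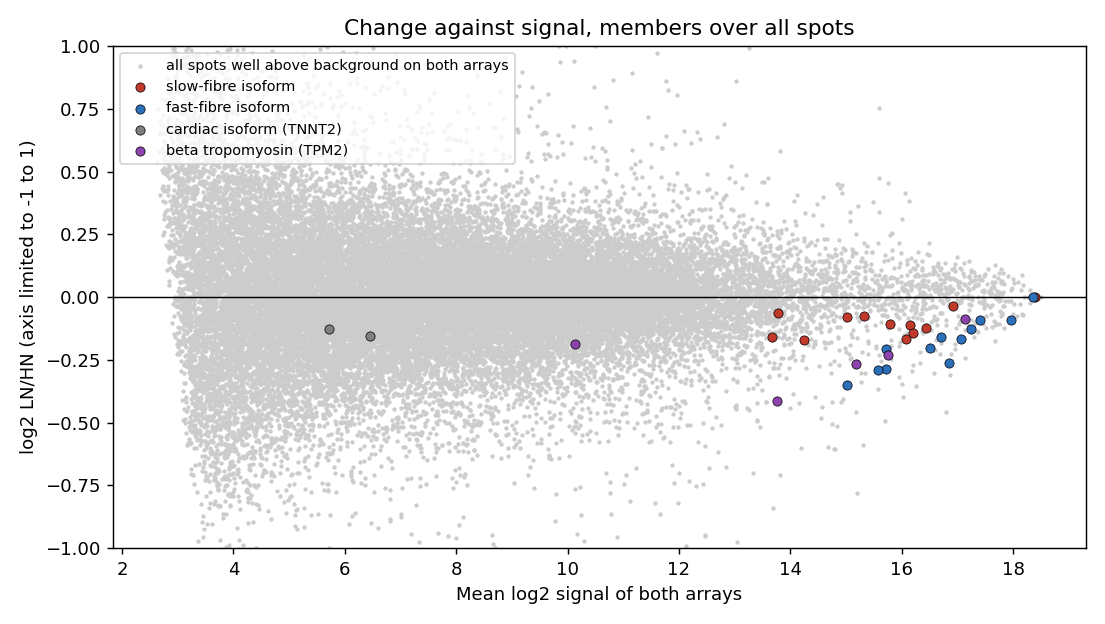
Log2 LN/HN (vertical axis, limited to -1 to 1) against the mean log2 signal of both arrays (horizontal axis) for all spots well above background on both arrays (grey) and the member probes (colours). The member probes lie at the bright end, mostly below 0, and narrow toward 0 with the other spots at the highest signals.

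Nearly all member probes were among the brightest on the array, which makes spots of like signal the closer background. Of the 31 member probes, 28 had a mean log2 signal over 13 and 24 over 15. Of the 31, 13 were lower in LN by more than the error of a spot, or 41.9%, where 20.1% of all probes well above background on both arrays were. Among the 28 over 13 there were 12, or 42.9%, where 10.6% of the 1748 probes at that level were, the members included. Both other limits were applied after seeing the data. With that from the bright repeated probes, 16 of the 28 were lower, or 57.1%, against 15.6% of the 1748. With the limit from the scanner software, 1 of the 31 was, the TPM2 probe at -0.42, or 3.23%, against 3.87% of all probes well above background on both arrays, so that the count rests on which error is taken. Those 1748 probes had a median of 0.0071 and the 630 over 15 a median of 0.011, values that quantile normalization itself holds near 0. Unnormalized, these medians over probes were 0.0057 and -0.0097. The unnormalized median over the means of the 8 genes, the dim TNNT2 included, was -0.14. Members share targets and pools, and the share of probes below the band is a description of these arrays.

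By fibre type, the 3 slow isoforms with a value had a median of -0.12 and the 3 fast isoforms a median of -0.20. Neither median passed the fold limit of 0.32 log2, and the fast isoforms ran from TNNT3 at -0.22 to TNNC2 at 0. The slow isoforms ran from -0.12 to -0.049, so the groups overlapped. With the brightest probe of each gene alone the order of the medians turned, to -0.12 for the slow and -0.091 for the fast isoforms.

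**Figure D4:**
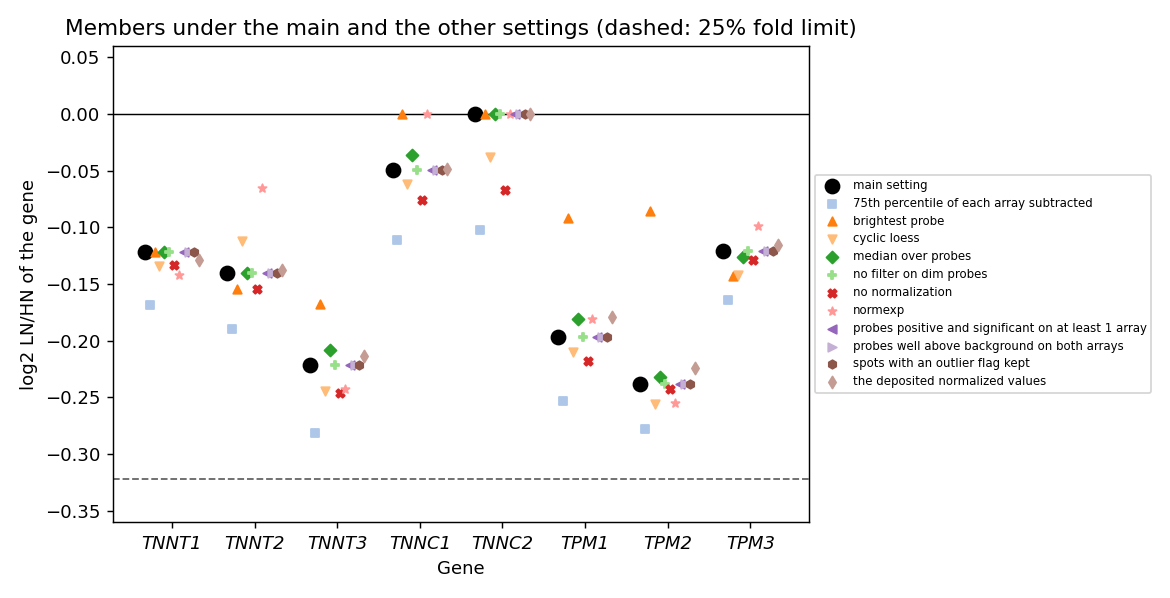
Log2 LN/HN of each gene (vertical axis) under the main setting (large black circles) and 11 others (small symbols), with a dashed line at the 25% fold limit, lower in LN. No member is above 0 or below the dashed line under any of these settings, while TNNC1 and TNNC2 reach 0 in some.

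Other genes of the thin filament moved less uniformly. Of a list of 20, 18 had a value and 13 were lower in LN. Past the fold limit 1 of the 18 was lower, where 9.11% of all genes were. The median was -0.14, or -0.085 with the normexp background correction. Skeletal alpha-actin ACTA1, the main actin of the filament, was near level at -0.04 (4 probes, from -0.21 to 0.05), and cardiac alpha-actin ACTC1, the form of immature muscle, was higher at 0.13 (2 probes). At the pointed end of the filament, the cap TMOD4 stood at -0.24 and the leiomodins LMOD2 and LMOD3, which lengthen it, at -0.30 and -0.16. XIRP1, an actin-binding protein of the myotendinous junction, was the gene past the limit, at -0.39 (4 probes), and KLHL40, which stabilises thin filament proteins, stood at -0.31. CAPZB, a subunit of the barbed-end cap, stood at -0.27 on 1 probe, while the other cap subunits CAPZA1 and CAPZA2, named here after their values were seen, stood at 0.27 (SD 0.20 over 3 probes) and -0.03.

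Myosin and other fibre-type genes were also set side by side, slow against fast. Of 12 slow-fibre genes with a value out of 13 listed, 7 were lower, 1 past the fold limit, with a median of -0.07 that turned to 0.01 when only the brightest probe of each gene was read. They included slow myosin MYH7 at -0.24, its light chains MYL2 at -0.05 and MYL3 at 0.06, slow myosin-binding protein MYBPC1 at -0.10, the oxygen store MB at -0.37, the calcium store CASQ2 at 0.21 and the Z-disc gene MYOZ2 at 0.19. Of 12 fast-fibre genes with a value out of 16, 9 were lower, 3 of them past the fold limit, with a median of -0.19 that became -0.099 with the brightest probes. Fast myosin MYH1 stood at -0.50 (SD 0.30 over 6 probes), the fast alpha-actinin ACTN3 at -0.60, the calcium store CASQ1 at -0.34 and the glycolytic GPD1 at -0.27, while MYH2, the myosin of type IIa fibres, was at 0.03 and fast light chain MYL1 at -0.01. No gene of either list was higher in LN past the fold limit. Of all genes, 9.11% were lower past it and 8.85% higher, so the slow-fibre count of 1 of 12 is near that background.

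Genes of developing muscle had no common direction. Of 15 with a value out of 16, 8 were lower, with a median of -0.01 that became 0.03 with the brightest probes. Embryonic myosin MYH3 stood at -0.04, while neonatal myosin MYH8 was at 0.35 (SD 0.29 over 3 probes). Embryonic light chain MYL4 was at -0.97 (SD 0.030 over 2 probes), the fusion gene MYMK at -0.50 and the myogenic factor MYF5 at 0.20. Of 13 partners in contraction and calcium release, 8 had a value and 4 were lower, none past the fold limit, with a median of 0.02 that became -0.0094 with the normexp background correction. They were led by the calcium release channel RYR1 at -0.19 and by the titin-binding TCAP at 0.18.

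**Figure D5:**
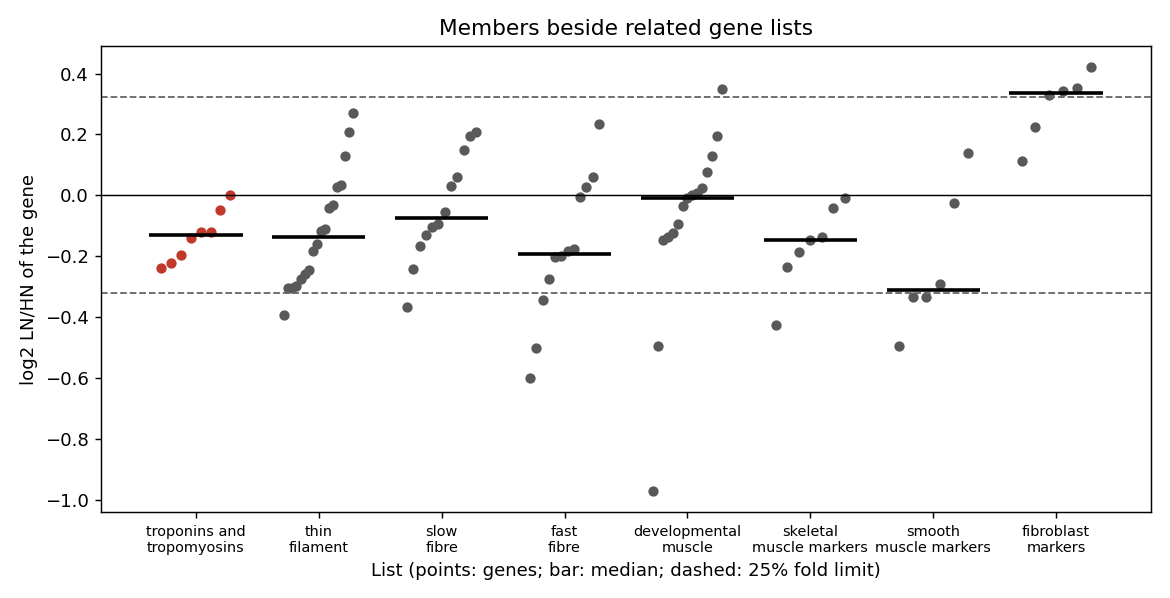
Log2 LN/HN (vertical axis) of each gene, for the troponins and tropomyosins (red) and for 7 related lists (grey), with a bar at the median and dashed lines at the 25% fold limit. The members spread over a narrow range from -0.24 to 0, every other list but the fibroblast markers reaches lower, and the 6 fibroblast markers all lie above 0.

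Markers of cell types moved between the pools too. In bulk tissue fewer cells of a type and less RNA per cell cannot be told apart. All 7 of the 9 listed skeletal muscle markers that had a value were lower in LN, among them creatine kinase CKM at -0.24 and the myogenic factor MYF6 at -0.43, with a median of -0.15, or -0.066 with the brightest probes. Of these, ACTA1, MYOD1, MYOG, DES and RYR1 were already counted in the lists above. MYOD1 was near level at -0.01. Probes of ACTA1, MYOD1, MYOG (-0.44 and 0.17) and DES (-0.41 to 0.06) lay on both sides of 0. The defining markers of skeletal muscle were present in both pools, with ACTA1 at 17.57 in HN and 17.53 in LN. All 6 fibroblast markers were higher in LN, between 0.11 and 0.42 with the collagen COL1A2 highest, and with a median of 0.34. Of these, 4 were past the fold limit, where 8.85% of all genes were higher past it. Of the smooth muscle markers, whose cells also use TPM1 and TPM2, 6 of 7 had a value and 5 were lower. Of those, 3 were past the fold limit, where 9.11% of all genes were lower past it. The median of the smooth muscle markers was -0.31, or -0.21 with normexp. MYH11, the myosin of smooth muscle, stood at -0.49 (SD 0.32 over 3 probes) and ACTA2 at -0.33 on 1 probe. SMTN was near level at -0.03 (4 probes, from -0.45 to 0.24), and LMOD1 was higher at 0.14 (2 probes, -0.14 and 0.41).

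The remaining marker lists were smaller. Endothelial markers had a median of -0.19, with 4 of 5 lower, and PECAM1 lowest at -0.32. Macrophage markers had a median of -0.06 with 3 of 4 lower. Erythroid markers had a median of -0.06 with 4 of 5 lower, but the brightest of them, HBA at 14.01 in HN, was level at 0.0021. Without the filter on dim probes the macrophage and erythroid medians were -0.17 and -0.16, and with normexp -0.019 and -0.023. Of 5 adipocyte markers 3 had a value, each from 1 probe: FABP4 at 0.39, CIDEC at 0.22 and PLIN1, lower in LN, at -0.14. Their median of 0.22 became 0.037 without the filter on dim probes. Of 6 cardiac markers only TNNI3 had a value. The part of these cell types in the differences of the troponins and tropomyosins was not tested.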

How the data were processed

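The authors pooled the RNA of 4 fetuses per group, hybridised each pool to an Agilent Bovine (v2) array and normalized the data by quantiles in GeneSpring. Per the labels, signals were extracted with Agilent Feature Extraction 11.0.1.1. The deposited files hold linear intensities per spot, already corrected for background by the scanner software, and a deposited table of normalized log2 values served as an alternative. Here the processed intensities of 43803 spots without controls, less 13 with an outlier flag, were put on a log2 scale and quantile-normalized (limma 3.58.1, R 4.3.3). Spots of a probe were averaged, giving 43652 probes, of which 32775 were well above background on at least 1 array. Probe accessions were matched to symbols in RefSeq's bovine genes (ARS-UCD2.0 assembly), which served only for names and neighbour order: 26742 probes matched 12603 symbols. A gene's value is the mean over its detected probes. The number of arrays, 1 per group, limits the precision.

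The scripts were checked on simulated data. All members are named with every probe. Of the related lists, up to 4 genes per list of largest absolute difference and the closest relatives of the members were eligible to be named, where they had a value. With 2 arrays no likeness of pattern between genes could be measured. Members, lists and rules were chosen with earlier results of these data known. Alternatives were other scalings, background correction by normexp (offset 50), the deposited values, other filters on dim probes, and other summaries over probes. Normexp was run on the median spot signal in place of the mean, and the match by the scanner file's gene name was not run, since the files used here lack both columns.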

Additional observations from a re-analysis of the deposited data

How the results depend on the processing

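Under 11 alternatives the 8 genes gave 88 values, of which 79 were negative, 9 were exactly 0 and 0 were positive, and none passed the 25% fold limit. Of these alternatives, 4 (other filters and outlier spots kept) left every member at its main value, and the 7 others gave 56 values, 51 negative and 5 exactly 0. The median over the members ran from -0.18 to -0.11, that of the slow isoforms from -0.16 to -0.099, TNNT1 minus TNNT3 from 0.046 to 0.11 and TNNC1 minus TNNC2 from -0.049 to 0. With the brightest probe of each gene alone, the median of the fast isoforms was -0.091, above the -0.12 of the slow ones, and TPM3 minus TPM1 was -0.051, against 0.19 over the probes in the shared range of signal, a restriction chosen after seeing the data. The cause was not tested. Counts over all genes depended on the processing. Against 1731 genes past the fold limit higher and 1781 lower, no filter on dim probes gave 3251 and 3592, a filter on positive and significant probes 3121 and 3785, and normexp on the spot median, also chosen after seeing the data, 319 and 386. With the 75th percentile of each array subtracted, 2693 were lower and the median of all genes was -0.042. The share of higher among called genes was 49.3% with quantile normalization, 30.7% with the 75th percentile, 39.3% with none and 45.4% with cyclic loess. No paired analysis was possible because each group has 1 array. The spot error omits differences between fetuses, and values at the top of the signal range carry little room to differ after quantile normalization.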
